A study of Homo sapiens with 6 samples.

Results

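The interleukin-1 family and its receptors were followed in A549 cells after exposure to the compound S541. The family was taken as 10 genes, found by gene name among the 58302 genes of the deposited table, and all 10 were present. They comprise the ligands *IL1A*, *IL1B*, *IL18* and *IL33*, the receptor antagonist *IL1RN*, the receptor genes *IL1R1*, *IL1R2*, *IL1RAP* and *IL1RL1*, and the receptor-associated kinase *IRAK2*. The treated group was 3 RNA-seq libraries of cells given 1.0 µM S541, also named 5n, for 48 h, and the control group was 3 libraries of cells given the solvent DMSO for 48 h. A549 is an established human line of lung adenocarcinoma, and both groups were kept in medium with serum and antibiotics, per the labels. The design text of the series speaks of retinal profiles, but all samples are labelled A549 and are treated as such here. Nothing in the labels says that replicates came from separate cultures, so the p-values cover the variation among these libraries only, and that variation may be technical.

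Interleukin-1 alpha and beta are inflammatory cytokines that bind the receptor encoded by *IL1R1*. The bound receptor recruits the accessory chain encoded by *IL1RAP*, and the complex signals through MYD88 and the IRAK kinases to NF-kB and MAP kinases. *IL1R2* encodes a decoy receptor that binds ligand without signalling, and *IL1RN* encodes an antagonist that occupies *IL1R1*. Interleukin-33 signals through the receptor ST2, encoded by *IL1RL1*, with the same accessory chain. In epithelial cells, interleukin-1 alpha, interleukin-18 and interleukin-33 are known as cytokines that can be released by damaged cells.

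After S541, transcripts of both classical ligands rose, *IL1A* 3.04-fold and *IL1B* 3.78-fold, and both were scarce in either group. *IL1RL1* rose as well, with reads in every S541 library and none in the DMSO libraries. It passed the filter on low counts through the S541 libraries alone. *IL18* and *IRAK2*, by far the more abundant members, did not pass the test, nor did the receptor chains *IL1R1* and *IL1RAP*. *IL33*, *IL1R2* and *IL1RN* were near the limit of detection, with 10 to 13 counts over the S541 libraries and 0 counts in every DMSO library.

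Total counts were 13956648 to 15794403 in the S541 libraries and 14927663 to 17044139 in the DMSO libraries. In bulk libraries, fewer cells expressing a gene and less RNA per cell cannot be told apart. Of 8 markers of epithelial cells and A549, the keratins *KRT8*, *KRT18* and *KRT7* were abundant, and the summed level of the list was 3374 to 3919 CPM (counts scaled to a common library size by the TMM method) in S541 libraries and 4015 to 4622 CPM in DMSO libraries. Keratins make up most of that sum. Of them *KRT8* (log2 fold change −0.50) and *KRT18* (−0.63) fell. *NQO1* averaged 188 CPM in S541 and 239 CPM in DMSO libraries, and *EPCAM* 10.3 CPM in S541 and 8.85 CPM in DMSO libraries. The epithelial cadherin *CDH1* was scarce, with 7 to 10 counts in S541 libraries and 14 to 19 in DMSO libraries. *ALDH1A1*, known for high expression in A549, had 0, 2 and 0 counts in S541 libraries and 0 in every DMSO library, and *AKR1B10*, also known for it, had 10 to 13 counts in S541 libraries and 12 to 16 in DMSO libraries, so these 2 markers go against the label. The summed level of 6 leukocyte markers was 2.20 to 2.73 CPM in S541 libraries and 2.23 to 3.12 CPM in DMSO libraries. Of these, *CD3E* had no count, *PTPRC* had 3 counts in S541 replicate 1 and none elsewhere, and *LYZ* had 1 count in DMSO replicate 1 and none elsewhere. The sums of 3 endothelial markers were 7.92 to 13.8 CPM in S541 and 11.3 to 11.5 CPM in DMSO libraries, and those of 4 fibroblast markers 30.4 to 36.2 CPM in S541 and 37.4 to 56.9 CPM in DMSO libraries. Of the fibroblast markers *PDGFRB* fell (log2 fold change −0.96, adjusted p = 0.0490, edgeR). The 4 markers of alveolar type 2 cells summed to 0.561 to 0.876 CPM in S541 and 0.0605 to 0.540 CPM in DMSO libraries, with *SFTPA1* at 0 throughout. The part of other cell types in the results was not tested.

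Counts were compared with the quasi-likelihood test of edgeR over 15847 genes that passed its filter on low counts, and the words rose and fell are kept for genes with a Benjamini-Hochberg adjusted p-value, over all tested genes, under 0.05. Each fold change sets S541 over DMSO on the log2 scale and carries its standard error (SE), and means are given ± SD over 3 libraries.

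*IL1A* (ENSG00000115008, chromosome 2, 112773915 to 112784590), the gene of interleukin-1 alpha, which acts at the receptor without prior cleavage, had 3.65, 2.63 and 2.52 CPM in S541 replicates 1 to 3, against 0.878, 1.08 and 0.907 CPM in DMSO replicates 1 to 3. Every S541 library was above every DMSO library, and S541 replicate 1 was the highest. The log2 fold change was 1.60 (SE 0.25, adjusted p = 0.0121, edgeR). These levels rest on 39 to 52 counts per S541 library and 13 to 18 per DMSO library. The call ended without DMSO replicate 3 (log2 fold change 1.57, adjusted p = 0.0535).

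*IL1B* (ENSG00000125538, chromosome 2, 112829751 to 112836903) encodes interleukin-1 beta, which is made as an inactive precursor and cleaved by caspase-1. It had 2.59, 2.63 and 3.17 CPM in S541 replicates 1 to 3, against 1.08, 0.660 and 0.484 CPM in DMSO replicates 1 to 3. The S541 libraries were close to each other and the groups did not overlap. The log2 fold change was 1.92 (SE 0.31, adjusted p = 0.0127, edgeR), from 37 to 49 counts per S541 library and 8 to 16 per DMSO library. The call ended without S541 replicate 2 (1.97, adjusted p = 0.0512), and when DMSO replicate 2 and S541 replicate 3 were left out together, an alternative added after seeing the data (1.75, adjusted p = 0.0670).

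Since both ligand genes moved in the same direction, their promoter windows are shown (RefSeq, GRCh38.p14, 250 bases before to 50 after a transcription start, minus strand, chr2:112784444-112784743 for *IL1A* and chr2:112836730-112837029 for *IL1B*). Capitals mark matches to TGANTCA, a loose pattern written for AP-1 that allows any base at N.
IL1A: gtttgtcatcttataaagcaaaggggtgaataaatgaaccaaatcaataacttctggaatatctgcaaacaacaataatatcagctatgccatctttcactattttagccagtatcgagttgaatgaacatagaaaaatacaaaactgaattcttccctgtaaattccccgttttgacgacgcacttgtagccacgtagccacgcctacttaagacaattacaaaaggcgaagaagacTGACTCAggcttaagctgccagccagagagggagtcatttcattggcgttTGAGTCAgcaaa
IL1B: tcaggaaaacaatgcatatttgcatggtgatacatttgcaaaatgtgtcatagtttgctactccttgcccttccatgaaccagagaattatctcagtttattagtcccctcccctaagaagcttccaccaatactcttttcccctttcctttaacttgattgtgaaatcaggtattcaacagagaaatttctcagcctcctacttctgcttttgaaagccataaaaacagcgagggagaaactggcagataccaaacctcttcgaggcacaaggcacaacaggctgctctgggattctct
The *IL1A* window held 2 matches, 1 of them beginning 12 bases before the start, and the *IL1B* window held none. RefSeq lists another *IL1A* start, whose window (chr2:112784351-112784650) holds the same 2 matches, 105 and 55 bases before that start.

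*IL18* (ENSG00000150782, chromosome 11, 112143251 to 112164117), another ligand whose precursor caspase-1 cleaves, was the most abundant member. It had 56.6, 52.3 and 51.3 CPM in S541 replicates 1 to 3, against 61.5, 87.2 and 58.0 CPM in DMSO replicates 1 to 3. DMSO replicate 2 was well above the other libraries, and the groups did not overlap although S541 replicate 1 came close to DMSO replicate 3. The log2 fold change of −0.37 (SE 0.16) did not pass (adjusted p = 0.197, edgeR). Without DMSO replicate 2 it was −0.16 (adjusted p = 0.330). Over the 6 libraries, the genes whose log2 CPM followed *IL18* most closely were *ST7* (Pearson's r 0.989), *NFS1* (0.988) and *AC098934.1* (0.986). These values are a description, and the libraries include 1 sample, DMSO replicate 2, well above the rest.

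*IL33* (ENSG00000137033, chromosome 9, 6215786 to 6257983), the gene of a nuclear cytokine of barrier epithelia, had 3, 3 and 4 counts in S541 replicates 1 to 3 and 0 in every DMSO library. It was under the filter on low counts. Without that filter its adjusted p-value was 0.113 (edgeR). A group sum of 0 allows up to 3 counts, or 0.0625 CPM over the DMSO libraries (counting error only). Set against that limit, the S541 sum of *IL33* was 3.50-fold higher. The S541 sum was taken without error, so this ratio is not a lower bound on the fold.

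*IL1RN* (ENSG00000136689, chromosome 2, 113107214 to 113134016), the antagonist, had 0, 9 and 2 counts in S541 replicates 1 to 3 and 0 in every DMSO library. Most of its counts came from S541 replicate 2, and S541 replicate 1 was at 0 like the DMSO libraries. It too was under the filter, with an adjusted p-value of 0.311 without the filter (edgeR). Against the same limit its S541 sum, again taken without error, was 3.85-fold higher.

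**Figure D1:**
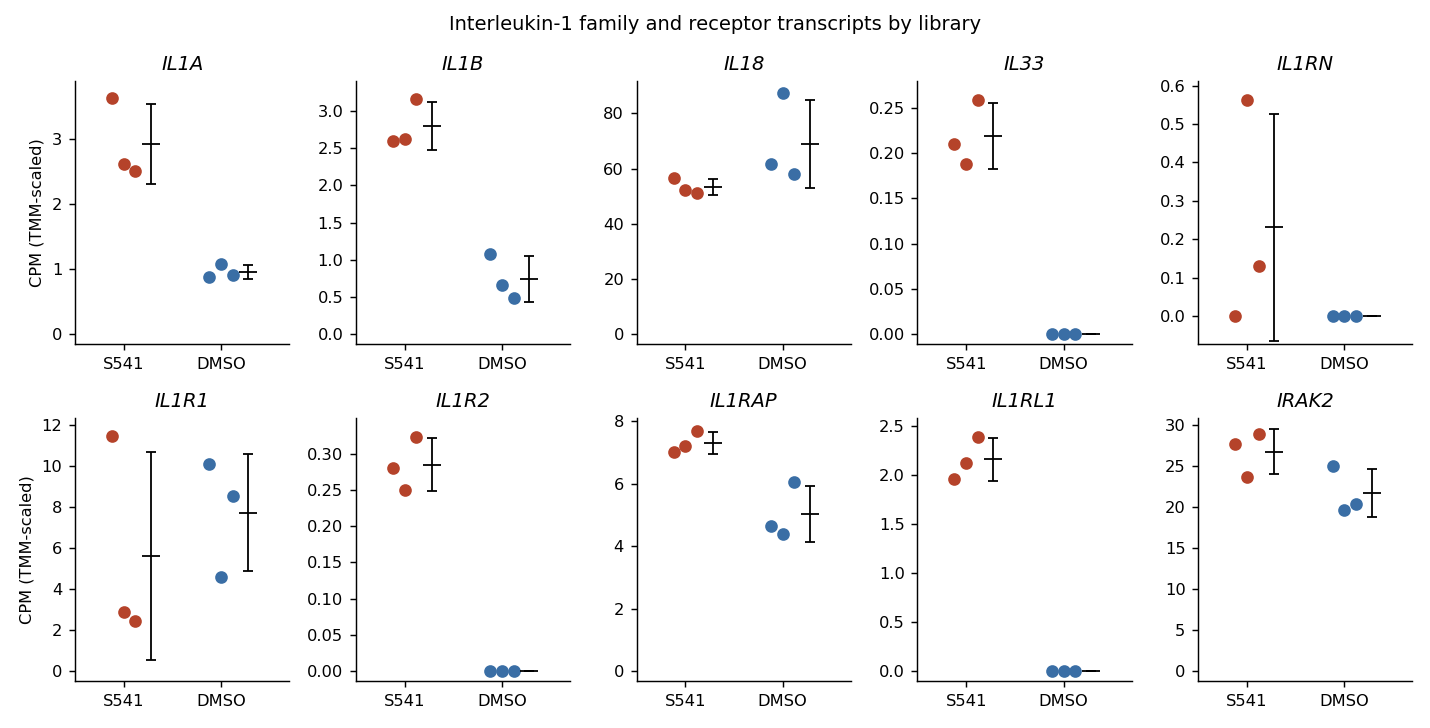
Level of each of the 10 genes in CPM (y axes, linear, 1 scale per panel), with a point per library and a bar for the mean ± SD of 3 libraries, S541 left of DMSO. Among the tested genes, the groups do not overlap for *IL1A*, *IL1B*, *IL1RL1* and *IL1RAP*, higher in S541, and for *IL18*, lower in S541. *IL33*, *IL1R2* and *IL1RN* reach at most 0.563 CPM, and *IL33* and *IL1R2* are above 0 in every S541 library alone. The *IL1R1* libraries spread from 2.46 to 11.4 CPM in S541 and from 4.56 to 10.1 CPM in DMSO.

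*IL1RL1* (ENSG00000115602, chromosome 2, 102311502 to 102352037), which encodes the interleukin-33 receptor ST2 in membrane and soluble forms, had 28, 34 and 37 counts in S541 replicates 1 to 3 and 0 counts in every DMSO library. In CPM these were 1.96, 2.13 and 2.39 in the S541 libraries, against at most 0.0625 over the DMSO libraries from the limit above. The S541 libraries differed little from each other. Its S541 sum, taken without error, was 34.7-fold above that limit, and the gene rose (adjusted p = 0.00410, edgeR). It reached the count minimum of the filter in 3 S541 libraries and 0 DMSO libraries, so it entered the test through the S541 side alone. Its call is for that reason not read as independent of the filter. With no filter on low counts its adjusted p-value was 0.00452 (edgeR). The call held in each of the 15 alternatives, with adjusted p-values from 2.46e-07 with DESeq2 to 0.0270 with the replicate number as a block. Only 1.65% of its exon bases are shared with another gene model, that of *IL18R1* on the same strand, which had 18, 9 and 13 counts in S541 replicates 1 to 3 and 10, 8 and 5 in DMSO replicates 1 to 3.

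The windows at both of its RefSeq starts are shown because reads of the gene were found in the S541 libraries alone (GRCh38.p14, plus strand, chr2:102311313-102311612 and chr2:102337007-102337306, capitals as before).
IL1RL1, first start: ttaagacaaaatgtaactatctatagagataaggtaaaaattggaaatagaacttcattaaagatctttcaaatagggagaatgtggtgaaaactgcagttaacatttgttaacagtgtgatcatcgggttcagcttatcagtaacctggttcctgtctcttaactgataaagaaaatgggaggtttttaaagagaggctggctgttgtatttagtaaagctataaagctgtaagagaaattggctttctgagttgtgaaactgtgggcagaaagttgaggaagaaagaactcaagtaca
IL1RL1, second start: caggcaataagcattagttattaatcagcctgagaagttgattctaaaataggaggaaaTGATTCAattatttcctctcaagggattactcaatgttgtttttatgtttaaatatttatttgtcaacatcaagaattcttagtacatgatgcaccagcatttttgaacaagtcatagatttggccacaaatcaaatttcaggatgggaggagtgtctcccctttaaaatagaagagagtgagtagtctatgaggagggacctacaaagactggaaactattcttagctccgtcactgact
The second window held 1 match to TGANTCA, beginning 191 bases before the start, and the first held none. This match reads TGATTCA, while those of *IL1A* read TGACTCA and TGAGTCA. The deposited counts are per gene, so the start used in these cells was not measured.

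Of the 10 genes, 9 had RefSeq windows, 18 in all, and *IL18* had none. On both strands, TGANTCA was found in 4 of these windows, those of *IL1A*, *IL1RL1* and *IL1RN*, and it is held by 7.71% of 35116 windows of all genes and by at least 1 window of 9.37% of 27305 genes. The NF-kB pattern was found in 2 windows, both of *IL1RN*, against 1.91% of all windows and 2.33% of genes, and the CRE pattern TGACGTCA in none, against 1.85% of all windows. These 2 *IL1RN* windows overlap and hold the same match, and the 2 *IL1A* windows likewise share their matches. The window counts are therefore not counts of separate sites. The patterns do not overlap in these windows, and a match in letters does not show that a factor binds.

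*IL1R1* (ENSG00000115594, chromosome 2, 102064544 to 102179874), the signalling receptor of interleukin-1, had 11.4, 2.88 and 2.46 CPM in S541 replicates 1 to 3, against 10.1, 4.56 and 8.53 CPM in DMSO replicates 1 to 3. S541 replicate 1 was the highest of all 6 libraries while the other 2 S541 libraries were the lowest, so the groups overlapped. The log2 fold change of −0.47 (SE 0.58) did not pass (adjusted p = 0.664, edgeR). Without S541 replicate 1 it was −1.52 (adjusted p = 0.0874), and without S541 replicate 3 it was −0.12 (adjusted p = 0.928). *IL1R1* averaged 5.59 ± 5.06 CPM in S541 and 7.72 ± 2.84 CPM in DMSO libraries.

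*IL1R2* (ENSG00000115590, chromosome 2, 101991844 to 102028544), the decoy receptor, had 4, 4 and 5 counts in S541 replicates 1 to 3 and 0 in every DMSO library. Its S541 sum, taken without error, was 4.55-fold above the limit for a group at 0. It was under the filter, and without the filter its adjusted p-value was 0.0789 (edgeR). The S541 libraries were close to each other, at 0.250 to 0.323 CPM.

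*IL1RAP* (ENSG00000196083, chromosome 3, 190514051 to 190659750), the accessory chain shared by the receptors of interleukin-1 and interleukin-33, had 7.01, 7.20 and 7.69 CPM in S541 replicates 1 to 3, against 4.66, 4.38 and 6.05 CPM in DMSO replicates 1 to 3. Every S541 library was above every DMSO library. The log2 fold change of 0.54 (SE 0.17) did not pass (adjusted p = 0.102, edgeR), and it did not in any of the 15 alternatives (0.0930 to 0.270). Another gene model shares 4.63% of its exon bases.

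*IRAK2* (ENSG00000134070, chromosome 3, 10164865 to 10243743), a kinase of the complex that MYD88 assembles at the receptor, had 27.7, 23.7 and 28.9 CPM in S541 replicates 1 to 3, against 25.0, 19.6 and 20.4 CPM in DMSO replicates 1 to 3. S541 replicate 2 lay below DMSO replicate 1, so the groups overlapped. The log2 fold change of 0.30 (SE 0.14) did not pass (adjusted p = 0.222, edgeR).

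Of the 7 members tested, 3 rose, none fell and 4 did not pass, where 8.19% of all tested genes changed, 4.02% higher and 4.17% lower in S541. At an unadjusted p under 0.05 were 5 of the 7, where 24.8% of all tested genes were. *IL1B* and *IL1RL1* reached the filter in every library only on the S541 side, so this count is not read as support. With no filter, all 10 members were tested and the same 3 passed, where 2.44% of 30834 genes changed. The libraries of the groups did not overlap for 5 of the 7 tested members, 4 higher and 1 lower in S541, where 31.1% of all tested genes did not overlap. At 0 counts in every DMSO library and at least 1 in every S541 library were 3 members, *IL1RL1*, *IL33* and *IL1R2*, where this held for 0.47% of genes with any count, and 0.279% of genes were at 0 in the S541 libraries and detected in every DMSO library. Genes at 0 in every DMSO library with at least the 99 S541 counts of *IL1RL1* numbered 6, including itself. Of the other 5, chosen after their values were seen, *ISY1-RAB43*, *INO80B-WBP1*, *AL136295.1* and *AP002748.4* share 100% of their exon bases with other gene models on the same strand. *VIL1* shares 44.0%, with a gene model on the other strand.

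Levels of different genes were compared per length. In the deposited FPKM, *IL18* came first with 10.4 ± 0.703 FPKM in S541 and 13.2 ± 2.91 FPKM in DMSO libraries, and *IRAK2* second with 7.73 ± 0.748 FPKM in S541 and 6.16 ± 0.858 FPKM in DMSO libraries. *IL1A* had rank 3 in S541 libraries (1.39 ± 0.315 FPKM) and rank 4 in DMSO libraries (0.444 ± 0.0465 FPKM), and *IL1B* had rank 4 in S541 (0.540 ± 0.0528 FPKM) and rank 6 in DMSO libraries (0.141 ± 0.0584 FPKM). In S541 libraries *IL1R1* (0.432 ± 0.397 FPKM), *IL1RAP* (0.318 ± 0.00990 FPKM), *IL1RL1* (0.180 ± 0.0149 FPKM), *IL1R2*, *IL1RN* and *IL33* followed. Neighbours whose ranges overlapped there were *IL1B* with *IL1R1*, *IL1R1* with *IL1RAP*, *IL1R2* with *IL1RN*, and *IL1RN* with *IL33*. In DMSO libraries *IL1R1* (0.583 ± 0.218 FPKM) had rank 3, overlapping *IL1A*, and *IL1RAP* (0.215 ± 0.0400 FPKM) had rank 5, overlapping *IL1B*.

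The length behind the deposited FPKM was longer than the merged exons for 8 of the members, up to 2.10 times for *IL1RL1*, and equal to them for *IL1A* and *IRAK2*. On CPM per kilobase of merged exons, chosen after seeing the data, the order of the members was unchanged in both groups, and the levels became 20.3 ± 1.06 in S541 and 26.2 ± 6.06 in DMSO libraries for *IL18*, 0.903 ± 0.104 in S541 and 0.239 ± 0.0989 in DMSO libraries for *IL1B*, and 0.376 ± 0.0376 in S541 libraries for *IL1RL1*. In DMSO libraries the overlapping neighbours were then *IL1A* and *IL1RAP*, while *IL1R1* lay above *IL1A* and *IL1RAP* above *IL1B*.

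**Figure D2:**
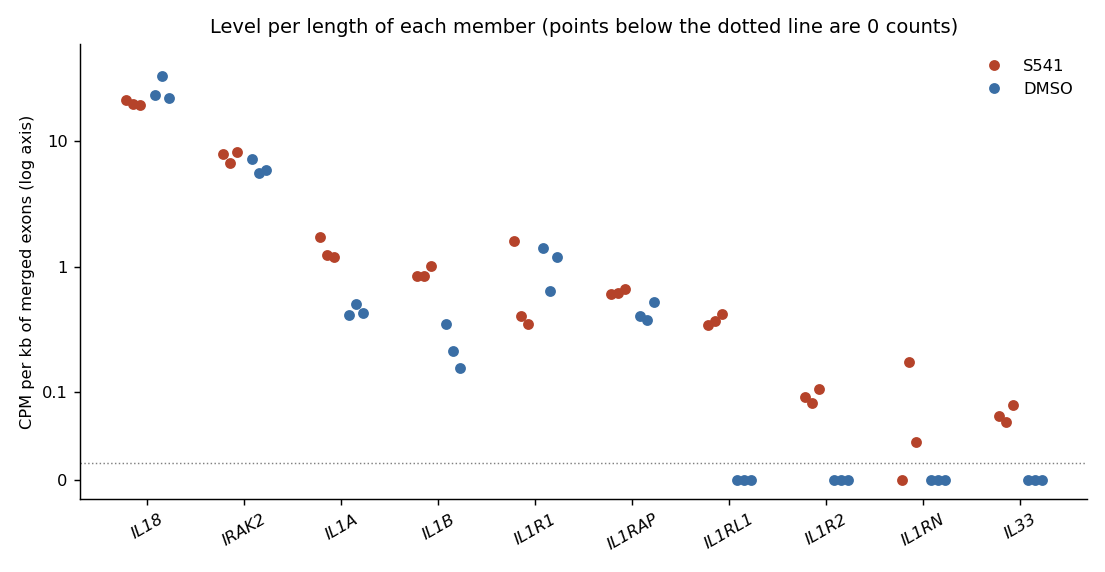
Level per length of the 10 genes in CPM per kilobase of merged exons (y axis, log scale, with 0 drawn below the dotted line), a point per library, S541 left of DMSO for each gene. *IL18* and *IRAK2* stand above the other members in both groups, and 4 genes are at 0 in every DMSO library.

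Among the members, 6 lie in 2 groups of neighbouring genes on chromosome 2 (hg38). The first holds 6 protein-coding genes over 460.7 kb, *IL1R2*, *IL1R1*, *IL1RL2*, *IL1RL1*, *IL18R1* and *IL18RAP*, all on the plus strand. Over the 3 libraries of a group, *IL1R2* had 13 counts in S541 and 0 in DMSO, *IL1R1* 247 in S541 and 366 in DMSO, *IL1RL1* 99 in S541 and 0 in DMSO, and *IL18R1* 40 in S541 and 23 in DMSO. *IL1RL2*, the receptor of interleukin-36, and *IL18RAP*, the accessory chain of the interleukin-18 receptor, had no count in any library. Neighbours in this group therefore had different patterns, with *IL1R1* not passing between 2 genes detected in the S541 libraries alone.

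The second group holds 9 protein-coding genes over 360.1 kb, with *IL1A* and *IL1B* at one end and *IL1RN* at the other. *IL1A* had 133 counts over the S541 libraries and 46 over the DMSO libraries, *IL1B* had 128 in S541 and 35 in DMSO, and *IL1RN* had 11 in S541 and 0 in DMSO. Of the 6 genes between them, *IL36A*, *IL36B*, *IL36RN* and *IL1F10* had no count, *IL37* had 2 counts in S541 and 0 in DMSO, and *IL36G* had 1 in each group. The genes between the ends thus had at most 2 counts over a group.

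**Figure D3:**
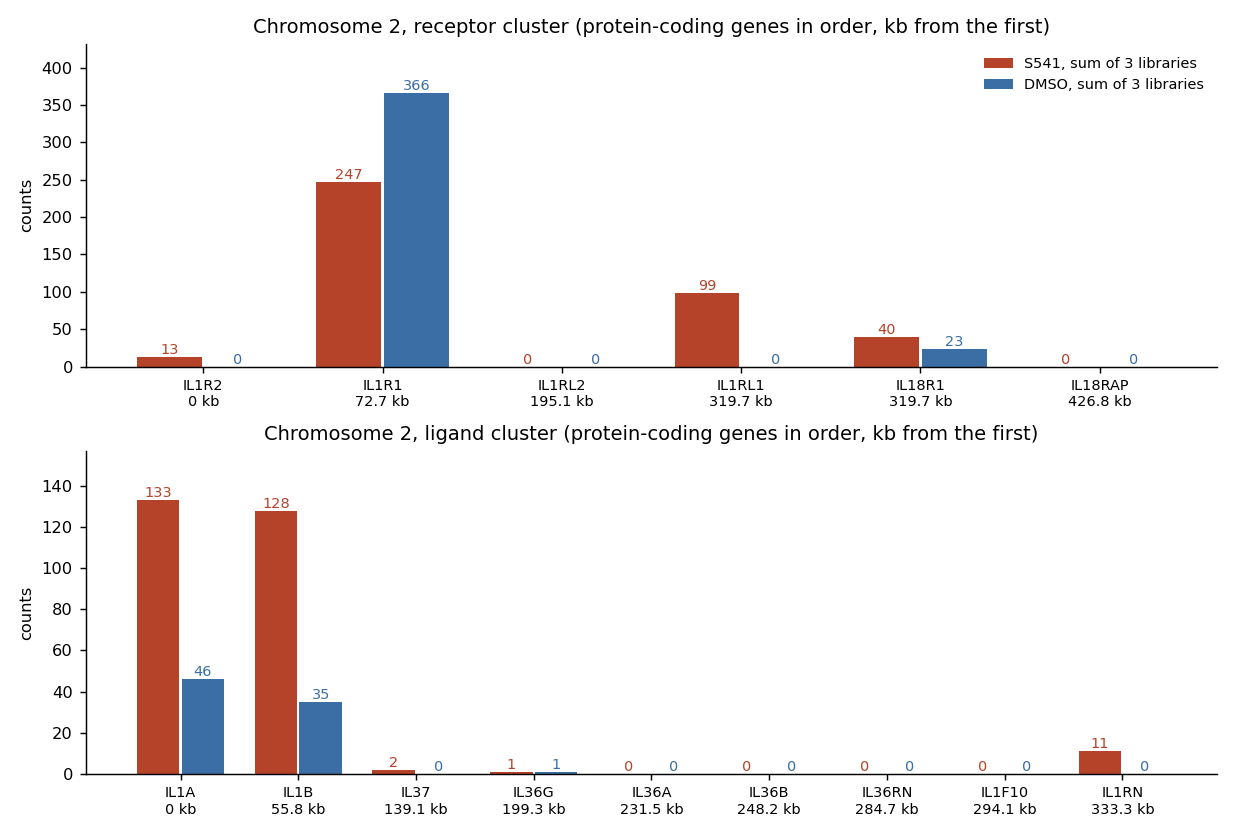
Counts summed over 3 libraries (y axes, linear) of the protein-coding genes in both chromosome 2 groups, in genomic order with the distance from the first gene in kb under each name, S541 bars left of DMSO bars. *IL1RL1* and *IL1R2* have bars in S541 alone, and the interleukin-36 genes are at or near 0 in both groups.

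Other genes of the pathway were read from a list of 64, of which 47 were tested. Of these, 7 rose and 2 fell, with a median log2 fold change of 0.17, where the median over all tested genes was −0.0019. The 9 genes were 19.1% of those tested on the list, where 8.19% of all tested genes changed, 4.02% higher and 4.17% lower. The list and its parts were chosen with earlier results of these data known, so their shares are a description and not read as support. Of the tested genes, *IL18R1*, *GSDMD*, *CXCL1* and *CXCL3* did not reach the count minimum of the filter in every DMSO library, and none of these passed. The groups did not overlap for 13 of the 47 genes higher and 6 lower in S541, where 15.9% of all tested genes were higher and 15.2% lower in this sense.

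Among 20 known targets of interleukin-1 in epithelial cells, 17 were tested, 5 rose and 1 fell (35.3% of them, against 8.19% of all tested genes). This share too is a description, since the list was chosen with earlier results of these data known. The median log2 fold change of the 17 was 0.42. The neutrophil chemokine *CXCL8* had 9.46, 11.6 and 7.63 CPM in S541 replicates 1 to 3, against 1.49, 2.52 and 1.81 CPM in DMSO replicates 1 to 3, and it rose by 2.29 on the log2 scale (SE 0.25, adjusted p = 0.00421, edgeR). *NFKBIZ*, a nuclear co-regulator of NF-kB targets, rose by 1.07 (SE 0.26), *IL6*, a cytokine, by 0.73 (SE 0.18), *ICAM1*, an adhesion molecule, by 0.49 (SE 0.12), and *SOD2*, the mitochondrial superoxide dismutase, by 0.42 (SE 0.08). *NFKBIA*, the NF-kB inhibitor that is itself a target of NF-kB, had 80.4, 64.5 and 59.3 CPM in S541 replicates 1 to 3, against 149, 121 and 130 CPM in DMSO replicates 1 to 3, and fell by 0.97 on the log2 scale (SE 0.14, adjusted p = 0.00775, edgeR). The list therefore moved in both directions. Of its 17 tested genes, 8 were higher and 4 lower in S541 without overlap of the groups, where 15.9% of all tested genes were higher and 15.2% lower. *CXCL2* (0.92, SE 0.30), *PTGS2* (0.47, SE 0.19) and *TNFAIP3* (0.40, SE 0.15) were higher in this sense but did not pass. The chemokine *CCL2* (−1.09, SE 0.30, adjusted p = 0.0661), the acute-phase gene *SAA1* (−0.66, SE 0.17, adjusted p = 0.0576) and *LCN2* (−0.67, SE 0.25) were lower and did not pass. *CXCL1* (−0.05, SE 0.39), also a neutrophil chemokine, did not pass either, and *CSF3*, under the filter, had 4, 7 and 6 counts in S541 replicates 1 to 3 and 0 in every DMSO library. *CXCL2*, *PTGS2*, *TNFAIP3*, *CCL2*, *SAA1*, *LCN2*, *CXCL1* and *CSF3* were chosen after their values were seen.

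Of 14 genes of processing and release, 10 were tested, 2 rose and 1 fell (median log2 fold change 0.07). These were 3 of 10, where 8.19% of all tested genes changed. *CAPN2*, a catalytic subunit of calpain, the protease family that cleaves the interleukin-1 alpha precursor, had 590 ± 13.8 CPM in S541 and 357 ± 12.6 CPM in DMSO libraries and rose by 0.73 on the log2 scale (SE 0.07, adjusted p = 0.00302, edgeR). *CASP4*, an inflammatory caspase that senses lipopolysaccharide, rose by 0.47 (SE 0.09, adjusted p = 0.0264), and *S100A13*, a partner in the unconventional release of interleukin-1 alpha, fell by 0.45 (SE 0.10, adjusted p = 0.0386), although other gene models overlap 33.5% of its exon bases. *NLRP3* and *AIM2*, sensors that activate caspase-1, had no count in any library.

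None of 17 signalling genes passed (median log2 fold change 0.11), where the kinase *IRAK1* was at 38.4 FPKM in S541 and 32.2 FPKM in DMSO libraries on average (log2 fold change 0.22, SE 0.17) and the ubiquitin-conjugating enzyme *UBE2N* at 8.51 FPKM in S541 and 7.74 FPKM in DMSO libraries (0.11, SE 0.09). None of the 3 tested genes among 7 other receptors and decoys passed (median log2 fold change 0.28), including *SIGIRR*, an inhibitory receptor (0.28, SE 0.16), and *IL18BP*, the soluble binder of interleukin-18 (0.12, SE 0.25). No gene of the 6 other cytokines of the family was tested, and 4 of them had no count.

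Of the 9 pathway genes that passed, *CXCL8*, *CAPN2* and *NFKBIA* did so in each of the 15 alternatives. With 1 library left out, calls ended for *ICAM1* without any 1 of the 6 libraries (adjusted p = 0.0617 to 0.115), for *CASP4* (0.0681 to 0.0919), *IL6* (0.0940 to 0.152) and *SOD2* (0.0564 to 0.0865) without each library other than DMSO replicate 2, for *NFKBIZ* without each other than DMSO replicate 3 (0.0799 to 0.150), and for *S100A13* without each other than S541 replicate 3 (0.0656 to 0.141). *CASP4*, *ICAM1*, *IL6*, *NFKBIZ* and *S100A13* also lost their calls when the filter was dropped (adjusted p = 0.0534 to 0.0887). Other gene models overlap 20.7% of the exon bases of *IL6* and 23.6% of those of *ICAM1*, on the other strand.

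**Figure D4:**
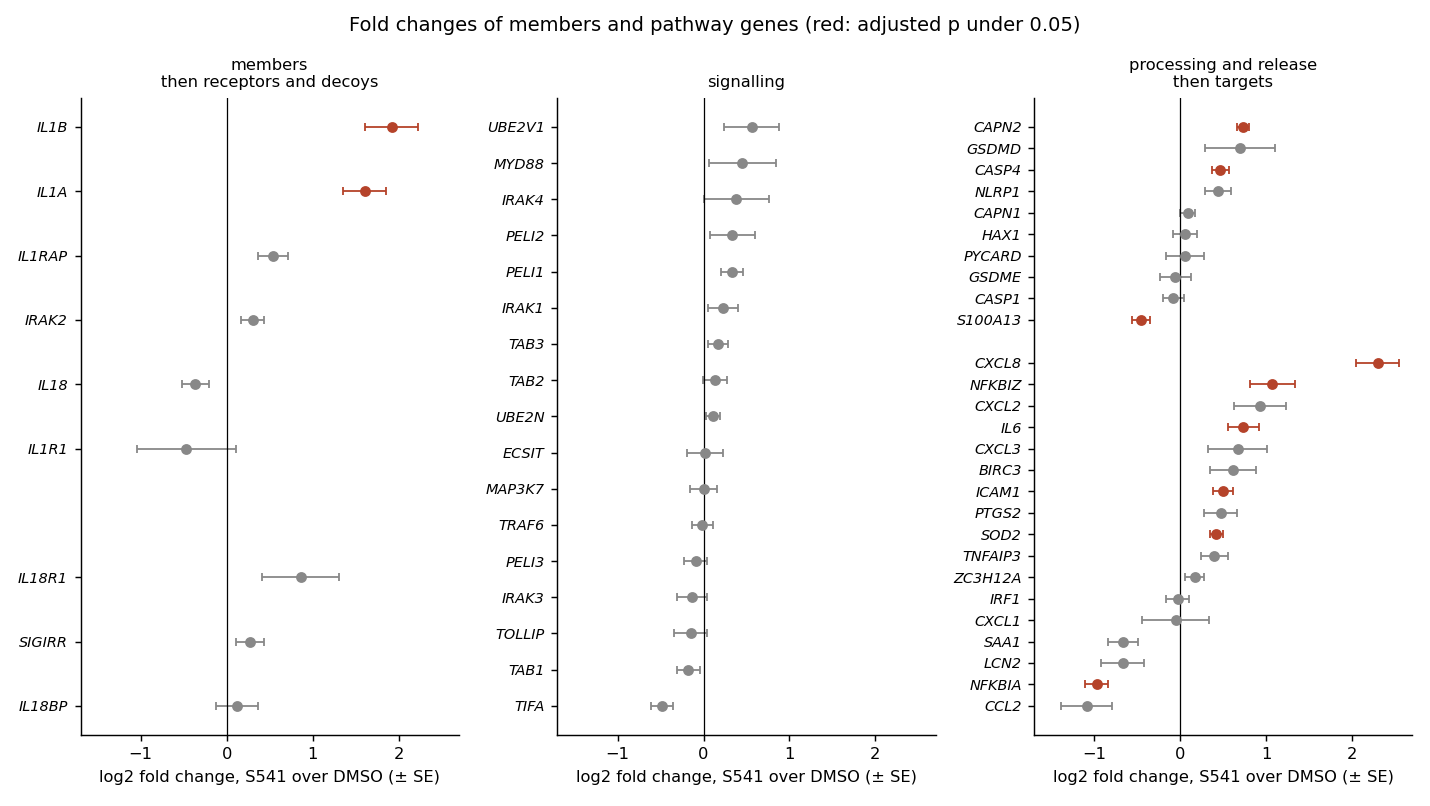
Log2 fold change of S541 over DMSO with its SE (x axes) for 6 tested members and for pathway genes by list, red where the adjusted p-value was under 0.05. *IL1RL1* is not drawn because its DMSO libraries are at 0. *IL1B*, *IL1A* and *CXCL8* lie farthest to the right, and the signalling genes stay grey on both sides of 0.

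In the authors' deposited table, 4 members had a Q-value under 0.05, *IL1RL1* (3.99e-18), *IL1B* (1.82e-05), *IL1A* (0.000291) and *IL1R2* (0.0168). In the authors' deposited table *IL1A* alone of the members was listed as up, among 145 genes. The rule behind that listing is not stated in the labels.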

How the data were processed

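RNA-seq libraries of A549 cells given S541 or DMSO were analysed, 3 per group. The authors deposited whole-number counts of reads per gene. The authors also deposited FPKM values, a log2 fold change per gene, and p-values and Q-values from their comparison in the same table. Per the submitters' processing notes, which name hg38 and edgeR without their roles, hg38 was taken as the build. The aligner, the counter and the strand setting are not stated there. Of the gene identifiers, 97.0% had the locus of GENCODE release 29, which was used for exon lengths and overlaps.

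The fit was made by edgeR 4.0.16 under R 4.3.3 (TMM scaling, filterByExpr with a count minimum of 10, group as the only term, 2-sided quasi-likelihood test, Benjamini-Hochberg adjustment over all 15847 tested genes, threshold 0.05), with a common biological coefficient of variation of 0.163. A fold against a group at 0 used 3 counts over the group as the limit, and such limits cover counting error only. The sum of the other group was taken without error, so these folds are not lower bounds. DESeq2 1.42.0 and limma 3.58.1 (voom) were alternatives. The script was tested on simulated data. All pairs of libraries differed by more than sampling noise (lowest chi-square divided by its degrees of freedom 12.4). DMSO replicate 2 stood apart from its group, at 27.3 from DMSO replicate 1 and 24.4 from DMSO replicate 3, which were 13.1 from each other.

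All 10 members are named. Of the pathway list, every gene that passed is named, or the 2 most abundant tested genes of a sub-list where none did. Total counts were 13956648 to 17044139 per library. The members and lists were chosen with earlier results of these data known. Promoter windows are from RefSeq (GRCh38.p14).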

Additional observations from a re-analysis of the deposited data

How the results depend on the processing

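Under the alternatives, 2 or 3 members changed. Leaving out 1 library gave 2 to 3 changed members, 3 to 8 changed pathway genes against 9, and 349 to 1330 changed genes overall against 1298. The 1330 came without DMSO replicate 2, while leaving out any other library gave 349 to 628. With no filter on low counts there were 753 changed genes and 4 changed pathway genes. DESeq2 gave more calls, 1790 genes overall and 12 pathway genes. With the replicate number as a block, 392 genes and 3 pathway genes changed, and the 3 members stayed past the threshold. Deviations of same-numbered libraries from their group means correlated at 0.104, −0.081 and −0.078, and not every library correlated best with its own number. With 3 libraries per group these correlations constrain each other. They cannot settle whether same-numbered libraries shared a culture or a batch. No log2 fold change of a tested member or of a pathway gene that passed changed its sign in the 15 alternatives. *IL1A* and *IL1B* rest on 8 to 18 counts per DMSO library, which limits their precision, and differences of *IL33*, *IL1R2* and *IL1RN* did not pass at this depth even with no filter.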

Other observations

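In 11178 genes with at least 100 counts in DMSO replicate 1, the length behind the deposited FPKM was 1.55 times the merged exon length (median), and its median ratio to the sum of the lengths of all distinct annotated exons was 1.00. Deposited FPKM values of genes with many overlapping exon models are thereby lower than values per merged exon. The length cancels in the ratio of 1 gene between libraries.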
